A study of Mus musculus with 6 samples.

Results

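The genes described here encode zinc proteases that cut the extracellular matrix and the proteins that inhibit them. They are the matrix metalloproteinases (MMPs), the ADAMTS proteases (a disintegrin and metalloproteinase with thrombospondin motifs) and the tissue inhibitors of metalloproteinases (TIMPs). They were chosen by gene symbol, with Adamts1 left out, and make up 46 of the 46078 rows of each deposited table. The 46 rows carry 45 symbols, since Mmp27 is listed under 2 identifiers. RNA came from the whole ovary of C57BL/6 mice at an age of 8 to 9 weeks. The series has 3 libraries labelled control and 3 from mice given cyclophosphamide (CTX), an alkylating chemotherapy drug. The labels used here state no dose, route, sampling time or stage of the oestrous cycle. Whether the 3 libraries of a group are separate animals is not stated either, and p-values therefore reflect the spread between these libraries only, which may be technical. Values per library are listed in the order of replicates 1, 2 and 3.

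In the ovary, the matrix is remodelled as follicles grow, when the follicle wall opens at ovulation, and as corpora lutea form and regress. Most MMPs are made as inactive proenzymes and are held in check, once active, by TIMPs that occupy the catalytic zinc site. ADAMTS proteases cut proteoglycans such as versican or trim procollagens, and TIMP3, which stays bound to the matrix, inhibits several of them as well as MMPs.

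Levels are RPKM, reads scaled by gene length and library depth, which allows genes of different length to be compared within a library. The values correspond to a depth of 15900000 to 16800000 reads in control libraries and 17000000 to 22300000 reads in CTX libraries. The libraries did not divide by group in their luteal, granulosa or adipocyte marker sums. Among the marker lists only that of mesothelium and surface epithelium did so, as given below. The summed RPKM of 11 luteal markers was 8976, 9596 and 4720 in control and 12026, 3662 and 3636 in CTX. Granulosa markers (10 genes) ran the other way, with sums of 1234, 1081 and 3032 in control against 702, 2569 and 2483 in CTX. Controls 1 and 2 and CTX 1 were thus rich in luteal and poor in granulosa RNA, and control 3, CTX 2 and CTX 3 the reverse. The sum of 8 adipocyte markers split the same libraries most widely, at 8.54, 5.48 and 133 in control against 7.12, 182 and 170 in CTX, and which of these differences bears on a member's level was not tested. All 10 oocyte markers were above the filter on low values, as were all luteal and granulosa markers. CTX 1 also had lower values for longer genes, with a Spearman correlation of -0.27 between exon length and its deviation from the 6-library mean (0.007 to 0.15 in the others). That correlation is across 14477 genes, which are not independent replicates. In such bulk tissue, fewer cells of a type and less RNA per cell cannot be told apart.

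The filter kept genes at 1 RPKM or more in 3 libraries or more, and 26 of the 46 rows passed and were tested: 10 of 24 MMP rows, 12 of 18 ADAMTS rows and all 4 TIMPs. No member passed the test between CTX and control, and the member nearest to it was Timp3, which had lower levels in CTX. Mmp11 was the most abundant member in every library, followed on average by Timp2, Timp1, Adamts10, Mmp2 and Mmp14, all with a mean of at least 47.6 RPKM. The lowest of the tested members was Adamts16, with a mean of 0.897 RPKM.

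**Figure D1:**
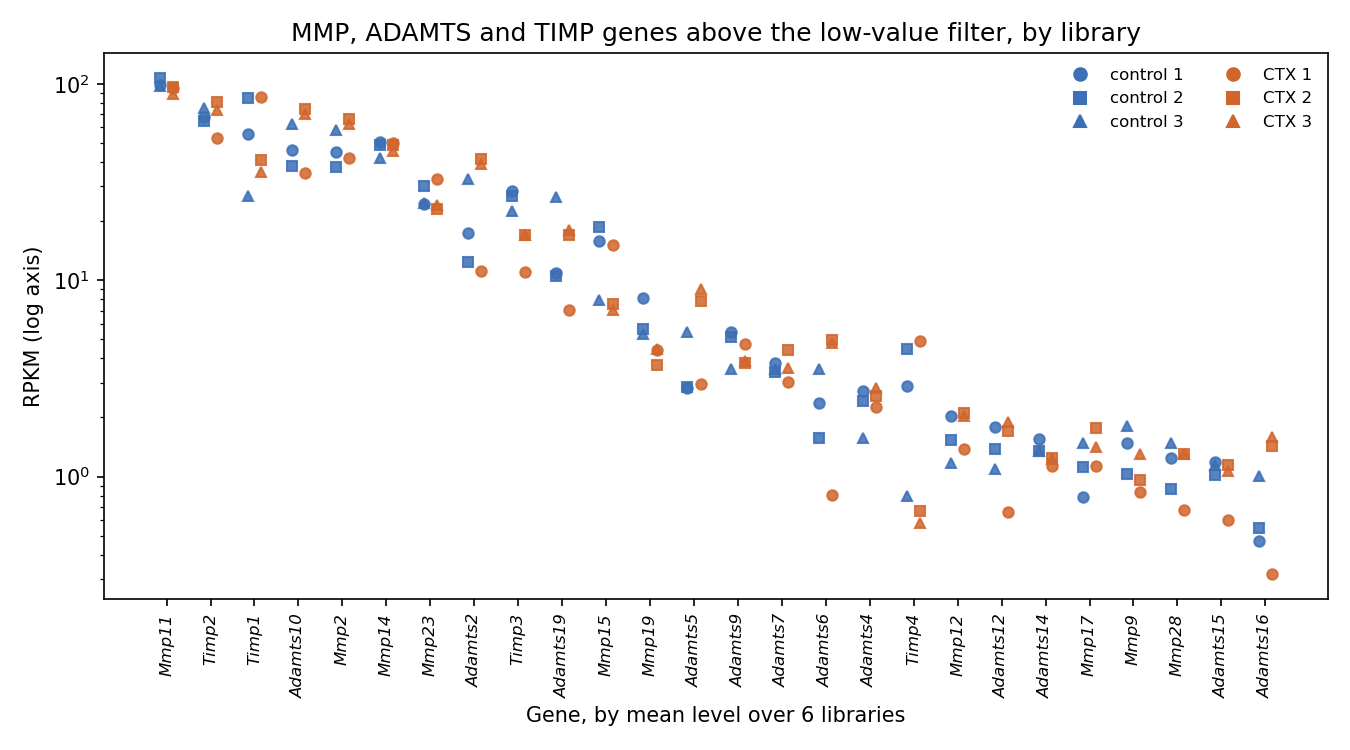
RPKM (log axis) of the 26 tested genes in each of the 6 libraries, ordered by mean level, with control libraries in blue and CTX libraries in orange and 1 marker shape per replicate number. Mmp11 lies between 88.7 and 107 RPKM in all libraries, while Timp4, Adamts6 and Adamts16 spread over at least 5-fold.

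The 4 inhibitors differed from each other in how their levels were distributed over the libraries. Timp3 had 28.3, 26.75 and 22.4 RPKM in control and 11.0, 16.9 and 17.0 in CTX. Every CTX library lay below every control, with CTX 1 lowest. The means were 25.8 ± 3.06 RPKM in control and 14.97 ± 3.45 in CTX (SD, n = 3 each here and below), so the control mean was 1.73 times the CTX mean. On the log2(RPKM + 1) scale, which understates changes of low genes, the difference between CTX and control was -0.77 ± 0.20 (SE), with a 95% interval of -1.24 to -0.30. Limma gave an unadjusted p of 0.00687, rank 92 among 14535 genes, and a Benjamini-Hochberg adjusted p of 0.99997 (0.166 to 1 over the alternatives).

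Without CTX 1 the difference was -0.57 (limma adjusted p = 0.166). With the luteal marker mean as a covariate it was -0.82 (limma adjusted p = 0.204). Timp3 lies on chromosome 10 (86300372 to 86349506, plus strand, mm10), inside the opposite-strand gene Syn3, with which it shares 21.3% of its 8144 exonic bases. Syn3, a synapsin gene, was at 0.15 to 0.21 RPKM in all 6 libraries. Between 1620 and 3670 reads per library stand behind the Timp3 values, estimated from RPKM, exon length and depth. Its exons are longer than the median of 3930 bases over all genes tested, and the part of length in its low CTX 1 value was not tested.

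Timp1, a soluble inhibitor induced in many cell types, had 55.4, 84.15 and 26.7 RPKM in control and 85.85, 40.8 and 35.5 in CTX. Timp4, a soluble inhibitor of restricted expression, had 2.88, 4.45 and 0.80 RPKM in control and 4.91, 0.67 and 0.58 in CTX. In both genes controls 1 and 2 and CTX 1 were the 3 highest libraries, as for the luteal markers, and the groups overlapped. The log2 differences were -0.0013 ± 0.49 (SE, 95% interval -1.19 to 1.19) for Timp1 and -0.43 ± 0.63 (-1.95 to 1.09) for Timp4. With the luteal covariate the sign of each turned, to 0.36 for Timp1 and 0.04 for Timp4. The value of Timp4 was -0.88 without control 3, -0.14 without CTX 2 and -0.099 without CTX 3, and it did not pass the filter when controls 1 or 2 or CTX 1 were left out.

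Timp2, which both inhibits MMPs and helps MMP14 activate MMP2, was the steadiest inhibitor. It had 68.0, 64.5 and 75.2 RPKM in control and 53.2, 80.5 and 73.3 in CTX, with overlapping groups and a log2 difference of -0.02 ± 0.18 (SE, 95% interval -0.45 to 0.41). The make-up of the summed TIMP RNA varied by library. Timp1 gave 55.4% of the summed TIMP RPKM in CTX 1 and 21.3% in control 3, and Timp2 gave 34.35 and 60.1% in the same libraries. Timp3 gave 18.3, 14.9 and 17.9% in control and 7.09, 12.2 and 13.5% in CTX, again with no overlap.

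**Figure D2:**
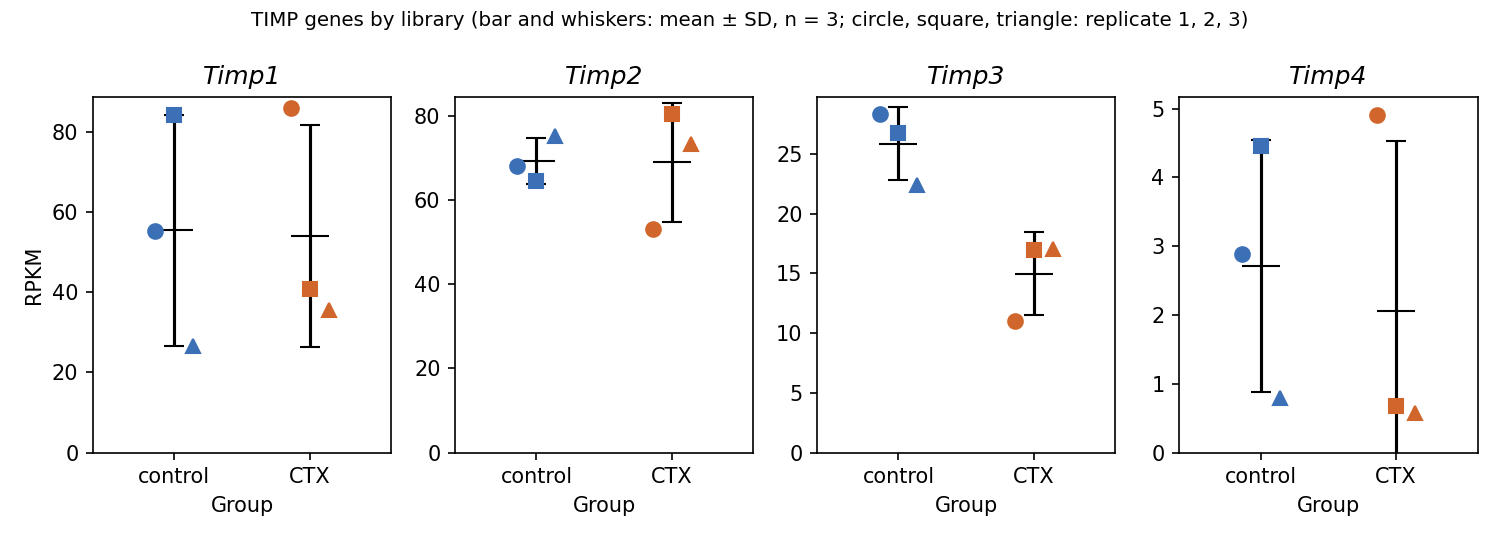
RPKM of the 4 TIMP genes by group, with 1 point per library (circle, square and triangle for replicates 1, 2 and 3) and a bar with whiskers for the mean ± SD of 3 libraries; each panel has its own axis from 0, where the lower whisker of Timp4 in CTX is cut. Timp3 alone shows all CTX libraries (11.0 to 17.0) below all controls (22.4 to 28.3).

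The window before the Timp3 start is shown because Timp3 is the member with the most negative log2 difference. The sequence is from RefSeq on GRCm38.p6, covers the 250 bases before the annotated start, 5′ to 3′ on the gene's strand, and has 65.6% G and C. RefSeq places this start downstream of the GENCODE gene start given above, so the end of the window lies inside the GENCODE gene. In lower case throughout, it holds none of the 4 motifs searched on both strands: AP-1 as TGANTCA, CRE as TGACGTCA, the NR5A motif as AAGGTCA and TATA as TATAAA.
Timp3 (chr10:86300162-86300411, plus strand): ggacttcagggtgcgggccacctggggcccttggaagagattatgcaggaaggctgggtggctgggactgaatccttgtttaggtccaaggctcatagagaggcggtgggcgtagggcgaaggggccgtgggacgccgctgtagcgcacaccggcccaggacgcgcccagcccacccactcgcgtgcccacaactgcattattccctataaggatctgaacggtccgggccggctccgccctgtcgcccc

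Both gelatinases, the MMPs that digest denatured collagen and basement membrane collagen, were detected, at very different levels. Mmp2 had 45.2, 37.6 and 58.1 RPKM in control and 42.1, 66.3 and 62.7 in CTX. Control 3 and CTX 2 and 3 were highest, and the groups overlapped (log2 difference 0.27 ± 0.23 SE, 95% interval -0.29 to 0.83). Mmp9, an enzyme abundant in neutrophils and macrophages, had 1.49, 1.03 and 1.82 RPKM in control and 0.84, 0.96 and 1.31 in CTX. CTX 3 lay within the control range, and the log2 difference was -0.26 ± 0.19 (SE, 95% interval -0.71 to 0.19).

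Of the membrane-type MMPs, which are anchored at the cell surface, Mmp14, Mmp15 and Mmp17 were tested. Mmp14, the surface activator of MMP2, was among the least variable members, with 50.65, 48.9 and 42.0 RPKM in control and 49.7, 48.8 and 45.7 in CTX. Its groups overlapped, and its log2 difference was 0.03 ± 0.12 (SE, 95% interval -0.25 to 0.31). Mmp15 had 15.9, 18.7 and 7.94 RPKM in control and 15.1, 7.52 and 7.05 in CTX, high in the same 3 libraries as the luteal markers. Its log2 difference of -0.48 ± 0.39 (SE, 95% interval -1.41 to 0.46) became -0.19 with the luteal covariate, -0.82 without control 3 and -0.80 without CTX 1. In each of the last 2 settings its groups did not overlap, but neither did those of 24.7% and 39.8% of all genes tested, in turn. Mmp17, held by a lipid anchor, had 0.79, 1.12 and 1.48 RPKM in control and 1.13, 1.76 and 1.41 in CTX, with overlapping groups.

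Mmp11, also called stromelysin 3 and activated inside the cell before secretion, had 98.4, 107 and 97.6 RPKM in control and 95.5, 96.6 and 88.7 in CTX. The groups did not overlap, but by a small margin, and the log2 difference was -0.11 ± 0.11 (SE, 95% interval -0.37 to 0.15). After trimmed-mean scaling or quantile normalization the groups overlapped. Mmp11 lies on chromosome 10 (75923222 to 75936496, minus strand, mm10) and shares 5.6% of its exonic bases with the opposite-strand gene Chchd10. Chchd10 had 97.4 to 269 RPKM, highest in CTX 1, and reads on the shared bases cannot be told apart without strand.

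Mmp19, a secreted MMP found in many resting tissues, was the other member with an unadjusted limma p under 0.05 (0.0310). It had 8.16, 5.62 and 5.34 RPKM in control and 4.40, 3.69 and 4.48 in CTX. All CTX libraries lay below all controls, and control 1 stood above the other controls. The means were 6.37 ± 1.55 and 4.19 ± 0.435 RPKM (SD), and the log2 difference was -0.49 ± 0.18 (SE, 95% interval -0.92 to -0.06, limma adjusted p = 0.99997, 0.282 to 1 over the alternatives). After quantile normalization the groups overlapped. Mmp19 lies on chromosome 10 (128790910 to 128800824, plus strand, mm10), and 22.3% of its exonic bases are shared with Tmem198b on the opposite strand. Tmem198b had 7.84, 7.14 and 8.04 RPKM in control and 5.72, 6.26 and 7.13 in CTX. Its CTX libraries thus also lay below all controls, by a small margin. The antisense gene Gm47093, for which no value is listed, shares 6.0% of the Mmp19 exonic bases. Reads on shared bases cannot be told apart without strand, and their part in the Mmp19 values was not tested.

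The remaining tested MMPs had overlapping groups. Mmp23, a small enzyme released from its membrane anchor by cleavage, had 24.5, 30.2 and 24.7 RPKM in control and 32.7, 23.0 and 24.1 in CTX (log2 difference -0.0040 ± 0.17 SE). Mmp12, the macrophage elastase, had 2.04, 1.53 and 1.18 RPKM in control and 1.38, 2.10 and 2.03 in CTX. It shares 157 exonic bases with Mmp1b on the opposite strand. Mmp28, or epilysin, had 1.25, 0.86 and 1.48 RPKM in control and 0.68, 1.30 and 1.30 in CTX, with its lowest value in CTX 1.

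Mmp12 was the only tested gene of an MMP cluster on chromosome 9, where 10 MMP genes lie within 427 kilobases (7272514 to 7699585, mm10). The other 9 were all below the filter. Outside the cluster, 9 of the 13 MMP genes with coordinates were tested. The cluster holds Mmp1a, Mmp1b, Mmp8 and Mmp13, grouped here as collagenases, and the stromelysins Mmp3 and Mmp10. It also holds the matrilysin Mmp7, the enamel protease Mmp20, and Mmp27.

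Mmp13 was the highest of the untested cluster genes, with 0.38, 0.38 and 0.36 RPKM in control and 0.08, 0.52 and 0.42 in CTX. Mmp8, the neutrophil collagenase, had 0.08, 0.15 and 0 RPKM in control and 0.34, 0.20 and 0.14 in CTX. At most 31 reads per library stand behind Mmp13 and at most 15 behind Mmp8, and neither was tested. Mmp1b was listed at 0 in all controls and at 0.04, 0.03 and 0.08 RPKM in CTX, which stands for 1, 1 and 2 reads. These numbers are too small to read a difference from. Mmp1b and Mmp1a are close copies, and how the authors' counting assigned reads between them is not stated. Mmp1b also shares 157 exonic bases with Mmp12, and the source of its few reads was not tested. Mmp1a and Mmp20 were listed at 0 in all 6 libraries.

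The promoters of the cluster are shown because its genes often hold an AP-1 and a TATA match, a pair that no other member with an entry held in this window. Each line is the last 100 bases before the RefSeq start on GRCm38.p6, 5′ to 3′ on the gene's strand, with AP-1 matches (TGANTCA) and TATA matches (TATAAA) in capitals. For Mmp12, which has 2 annotated starts, as for Mmp7, the start whose window holds a match is shown.
Mmp13 (chr9:7272414-7272513, plus strand): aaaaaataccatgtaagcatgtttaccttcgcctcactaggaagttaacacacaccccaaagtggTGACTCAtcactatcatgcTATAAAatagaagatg
Mmp3 (chr9:7445722-7445821, plus strand): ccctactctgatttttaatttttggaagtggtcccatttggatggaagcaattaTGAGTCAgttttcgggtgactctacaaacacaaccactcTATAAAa
Mmp1a (chr9:7464041-7464140, plus strand): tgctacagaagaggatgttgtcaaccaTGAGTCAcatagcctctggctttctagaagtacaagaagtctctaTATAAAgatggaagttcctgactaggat
Mmp1b (chr9:7388027-7388126, minus strand): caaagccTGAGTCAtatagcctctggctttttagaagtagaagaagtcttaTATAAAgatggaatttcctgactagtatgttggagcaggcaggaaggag
Mmp10 (chr9:7502242-7502341, plus strand): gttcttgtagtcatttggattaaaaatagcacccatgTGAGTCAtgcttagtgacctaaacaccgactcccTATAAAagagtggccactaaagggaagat
Mmp7 (chr9:7691990-7692089, plus strand): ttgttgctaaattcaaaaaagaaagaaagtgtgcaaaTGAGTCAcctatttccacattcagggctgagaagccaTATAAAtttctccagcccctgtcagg
Mmp20 (chr9:7628131-7628230, plus strand): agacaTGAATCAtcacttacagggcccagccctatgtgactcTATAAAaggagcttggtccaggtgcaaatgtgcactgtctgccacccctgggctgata
Mmp12 (chr9:7347274-7347373, plus strand): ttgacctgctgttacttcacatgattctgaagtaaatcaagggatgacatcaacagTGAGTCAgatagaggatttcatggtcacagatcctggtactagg
Mmp8 (chr9:7558329-7558428, plus strand): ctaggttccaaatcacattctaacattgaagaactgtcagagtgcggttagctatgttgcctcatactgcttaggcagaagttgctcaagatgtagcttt
Mmp27 (chr9:7571296-7571395, plus strand): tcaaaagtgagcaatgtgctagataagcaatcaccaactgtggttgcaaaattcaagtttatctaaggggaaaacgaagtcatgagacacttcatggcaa

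In the 250 bases before the start, all 10 cluster genes had a RefSeq entry, 8 held an AP-1 match and 7 held both an AP-1 and a TATA match. A gene is counted here if any of its windows matched, and the other window of Mmp12 and of Mmp7 held no match. Counted by window instead, over 32851 promoter windows of the same length, 6.75% held an AP-1 match and 1.215% held both. Of the 21 other members with an entry, 0 held an AP-1 match and 1 (Mmp21) held a TATA match. G and C made up 37.2 to 53.2% of the cluster windows and 53.6 to 79.2% of the others. A CRE match was found in 0 of the 31 members (1.55% of all windows), and the NR5A motif in Mmp1a only (4.08% of all windows). A match is a string of letters and not a shown binding site, and no match says only that these letters are not in this window.

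Among the ADAMTS proteases that cut proteoglycans, Adamts4, Adamts5, Adamts9 and Adamts15 were tested. Adamts5, an aggrecan- and versican-cleaving enzyme, had 2.83, 2.87 and 5.45 RPKM in control and 2.96, 7.82 and 9.03 in CTX. CTX 2 and 3 were the highest libraries, whereas CTX 1 lay at the level of controls 1 and 2. The log2 difference of 0.62 ± 0.40 (SE, 95% interval -0.34 to 1.59) was the largest in the positive direction among the members and did not pass (limma unadjusted p = 0.167). Without CTX 1 it was 1.04 (limma adjusted p = 0.206), and with the luteal covariate 0.34.

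Adamts9, which also cuts versican, had 5.43, 5.15 and 3.54 RPKM in control and 4.73, 3.79 and 3.88 in CTX. Adamts4, another aggrecan-cleaving enzyme, had 2.73, 2.42 and 1.58 RPKM in control and 2.27, 2.58 and 2.82 in CTX. Adamts15 had 1.19, 1.02 and 1.14 RPKM in control and 0.60, 1.15 and 1.07 in CTX, so only CTX 1 fell outside a narrow range. The groups overlapped in all 3 genes.

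Adamts2, the main procollagen N-propeptidase, which trims fibrillar procollagens before assembly, was among the most variable members. It had 17.3, 12.4 and 32.9 RPKM in control and 11.1, 41.3 and 39.2 in CTX. Control 3 and CTX 2 and 3 were high. These libraries also had the higher granulosa, oocyte, adipocyte, stroma, smooth muscle and pericyte, and oviduct marker sums. Stroma sums, for instance, were 592, 476 and 786 RPKM in control and 469, 694 and 697 in CTX. Which of these lists bears on Adamts2 was not tested. The log2 difference of Adamts2 was 0.43 ± 0.57 (SE, 95% interval -0.94 to 1.81). It was 0.01 with the luteal covariate and 1.02 without CTX 1. Adamts14, a second enzyme of this kind, had 1.56, 1.35 and 1.35 RPKM in control and 1.13, 1.25 and 1.23 in CTX. Its groups did not overlap, the log2 difference was -0.13 ± 0.13 (SE, 95% interval -0.46 to 0.19), and after quantile normalization they overlapped. The third, Adamts3, was below the filter with 0.19 to 0.33 RPKM.

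Adamts10, which acts on the fibrillin microfibrils of connective tissue, was the most abundant ADAMTS gene, with 45.8, 38.15 and 62.6 RPKM in control and 35.0, 74.4 and 70.2 in CTX. Adamts6, its closest relative in the family, had 2.38, 1.57 and 3.54 RPKM in control and 0.81, 4.98 and 4.79 in CTX. Adamts16 had 0.47, 0.55 and 1.01 RPKM in control and 0.32, 1.43 and 1.6 in CTX. In each of these genes control 3 and CTX 2 and 3 were the 3 highest libraries and CTX 1 the lowest. The highest library exceeded the lowest 2.12-fold for Adamts10, 6.15-fold for Adamts6 and 5.0-fold for Adamts16. Without CTX 1 the log2 differences of these genes were 0.59, 0.79 and 0.60 (limma adjusted p = 0.280, 0.255 and 0.251), against 0.24, 0.22 and 0.29 with all libraries. With the luteal covariate they were 0.0094, -0.12 and 0.093. Without CTX 2 they were 0.05 for Adamts10 and -0.07 for Adamts6, and Adamts16 did not pass the filter.

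Adamts19, a family member whose substrates are poorly known, had the highest value in control 3. It had 10.9, 10.5 and 26.6 RPKM in control and 7.09, 17.0 and 18.1 in CTX. CTX 1 thus lay below controls 1 and 2, and CTX 2 and 3 lay below control 3, but the groups overlapped. The log2 difference was -0.14 ± 0.47 (SE, 95% interval -1.27 to 0.98), and with the luteal covariate it was -0.49, with the smallest adjusted p of any member in that fit (limma adjusted p = 0.148). Without control 3 its sign turned, to 0.27. With CTX 1 left out instead it was also positive, at 0.25.

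Adamts7 and Adamts12 cut cartilage oligomeric matrix protein. Adamts7 had 3.79, 3.39 and 3.55 RPKM in control and 3.03, 4.41 and 3.59 in CTX (log2 difference 0.02 ± 0.15 SE). Adamts12 had 1.79, 1.39 and 1.09 RPKM in control and 0.66, 1.71 and 1.90 in CTX (log2 difference -0.03 ± 0.26 SE). In both, CTX 1 was lowest and the groups overlapped.

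The members not yet given were below the filter, with no value above 0.89 RPKM. Adamts17 was the highest of the 20, with 0.40 to 0.89 RPKM, and Mmp16 reached 0.61. Adamts8, Adamts18, Adamts20, Mmp24 and Mmp25 reached 0.18, 0.15, 0.13, 0.17 and 0.44 RPKM. Adamts13, which cuts von Willebrand factor and is made mainly in liver, reached 0.04, Mmp3 0.20, Mmp10 0.07, Mmp7 0.06, Mmp21 0.03 and Mmp27 0.09 RPKM. The second Mmp27 row was listed at 0 throughout and matched no gene of the annotation.

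Limma called 0 of the 26 tested members higher and 0 lower in CTX at an adjusted p under 0.05, as it called 0% of all 14535 genes tested in either direction. At an unadjusted p under 0.05 there were 0 members higher and 2 lower (Timp3 and Mmp19), where 2.29% of all genes were lower and 1.16% higher. Groups did not overlap in 4 members, all lower in CTX (Timp3, Mmp19, Mmp11 and Adamts14), which is 15.4% of the 26. The corresponding share of all genes tested was 8.83% in either direction, 5.5% for lower in CTX and 3.32% for higher, with 0 members in the last. With 3 libraries per group, the smallest p of an exact permutation test is 0.1. After quantile normalization only Timp3 was left among the 4. Without CTX 1 the groups did not overlap in 12 members, where 39.8% of all genes tested did not, and without control 3 in 8, where 24.7% did not.

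The median log2 difference of the 26 members was -0.01 (quartiles -0.14 to 0.18), with 11 positive and 15 negative, and that of all genes tested was -0.0053. By family the medians were -0.04 for 10 MMPs, 0.08 for 12 ADAMTS genes and -0.23 for 4 TIMPs. All 4 TIMPs had negative values, but Timp1 turned positive (0.0083) after trimmed-mean scaling, and Timp1 and Timp4 did so with the luteal covariate.

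**Figure D3:**
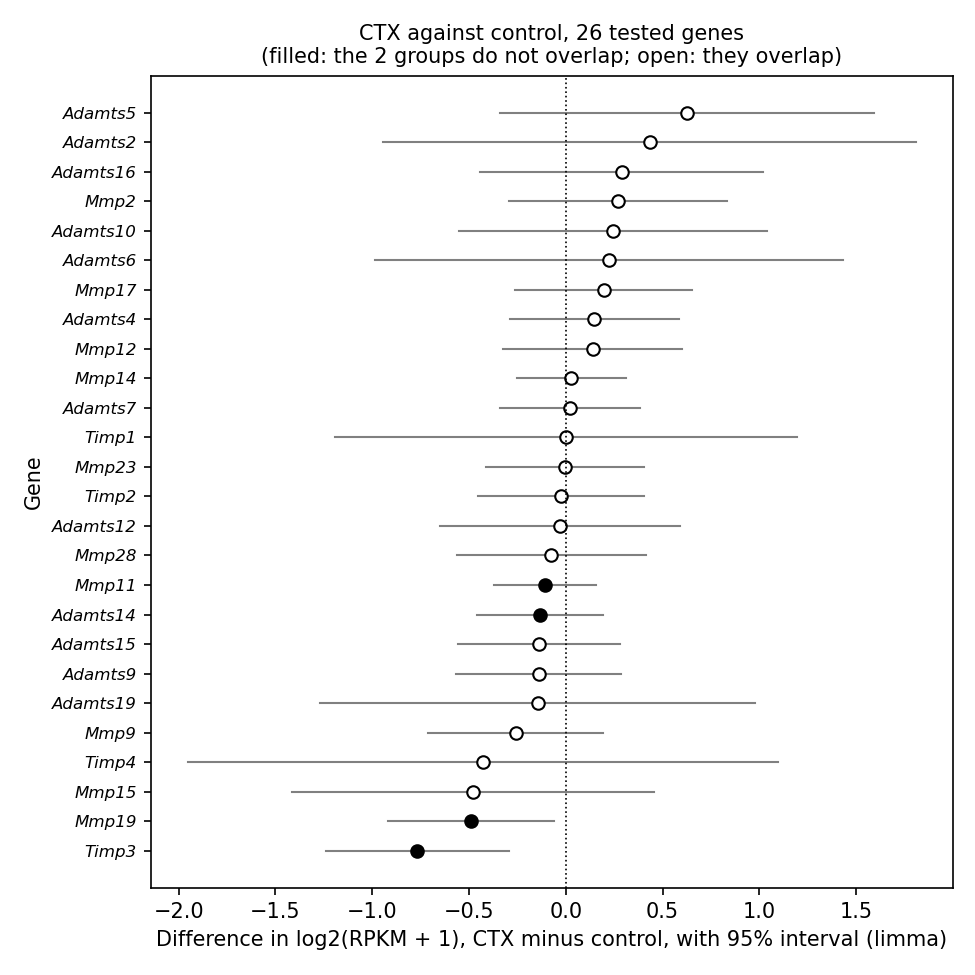
Difference in log2(RPKM + 1) between CTX and control for the 26 tested genes (limma, n = 3 libraries per group), with 95% intervals as lines; filled points mark genes whose groups do not overlap. The 4 filled points are all negative, and the intervals of Timp3 and Mmp19 alone do not reach 0.

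Many members, like many of all genes tested, shared an order of libraries that cut across the labelled groups. The 3 highest libraries were control 3, CTX 2 and CTX 3 in 10 of the 26 members (38.5%, against 31.0% of all genes tested). They were controls 1 and 2 and CTX 1 in 5 members (19.2%, against 16.6%). CTX 1 was the lowest library in 13 members (50%, against 42.0%). The median exon length was 6121 bases in the tested members and 3930 in all genes tested, and the part of length in the low values of CTX 1 was not tested.

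**Figure D4:**
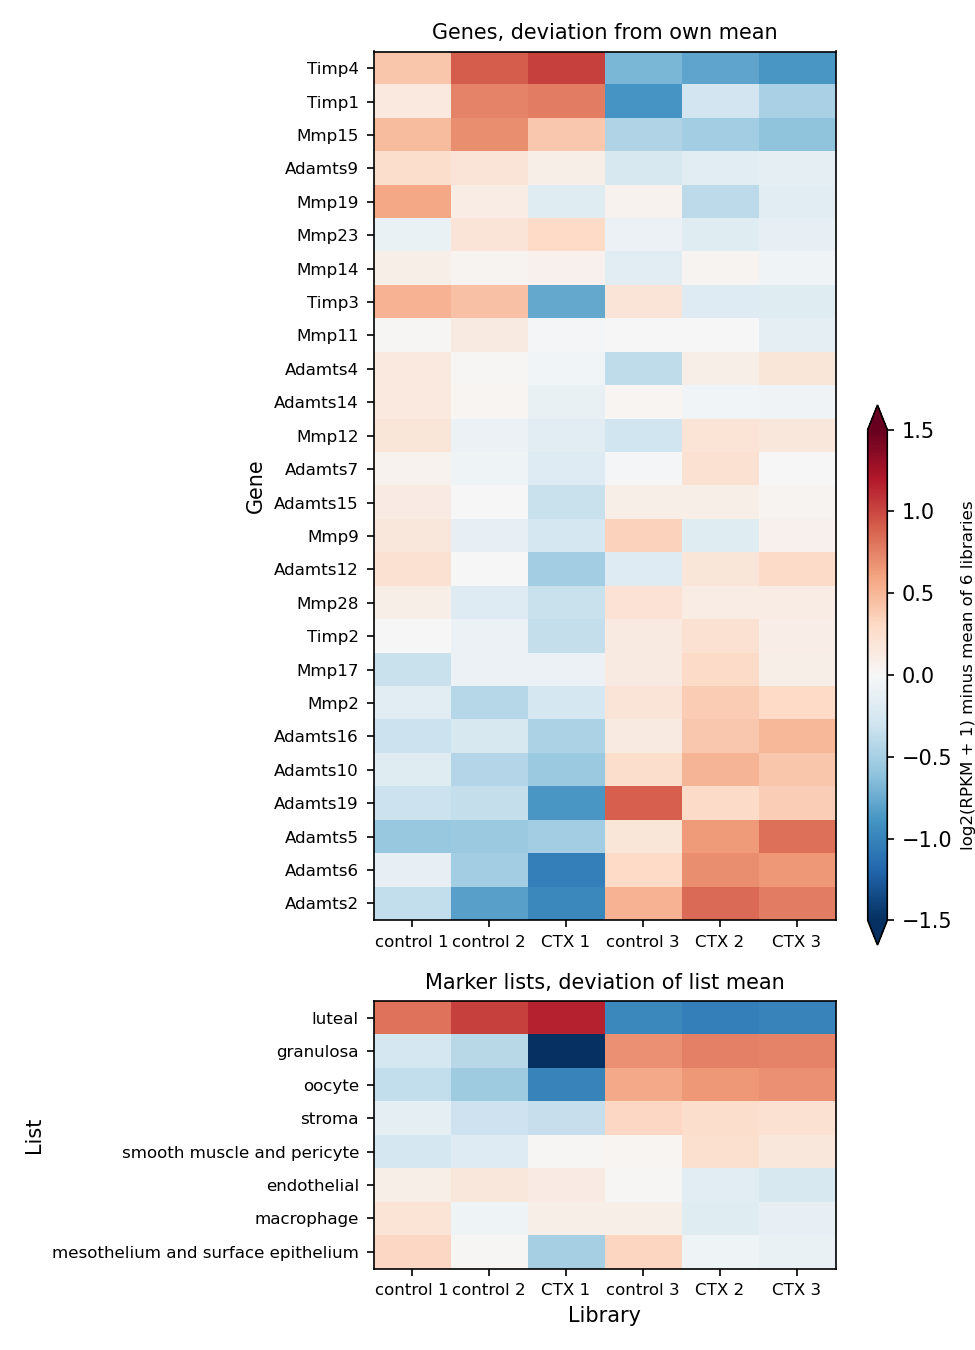
Deviation of log2(RPKM + 1) from the mean of the 6 libraries, by colour, for the 26 tested genes (top) and for the mean of 8 marker lists (bottom), with controls 1 and 2 and CTX 1 placed beside each other; genes are ordered by their summed deviation in those 3 libraries. Timp4, Timp1 and Mmp15 share the sign of the luteal list in all 6 libraries, and Adamts2, Adamts6 and Adamts5 have the opposite sign, like the granulosa, oocyte and stroma lists.

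Summed over all members of a family, MMP levels were nearly flat, with 250.1, 254.1 and 243.4 RPKM in control and 244.7, 254.1 and 240.4 in CTX. ADAMTS sums ranged widely, at 97.5, 82.2 and 145.8 in control against 70.55, 163.2 and 158.6 in CTX. TIMP sums amounted to 154.6, 179.8 and 125.1 in control against 155.0, 138.9 and 126.4 in CTX. The ratio of MMP to TIMP sums was 1.66 ± 0.268 in control and 1.77 ± 0.170 in CTX (SD, n = 3 each), with overlapping groups. These are ratios of RNA levels and not of active enzyme to inhibitor.

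Other genes of matrix proteolysis showed no difference that passed the test. Of 56 partner genes 37 were tested, limma called 0 higher and 0 lower, 0 had an unadjusted p under 0.05 in either direction, and in 0 of them did the groups not overlap. The median log2 difference was -0.02, with 18 positive and 19 negative. The plasminogen system gene with the highest mean over the 6 libraries was Serpine2, a protease inhibitor, with 39.8, 37.7 and 115 RPKM in control and 28.1, 102 and 102 in CTX. Plau, the urokinase gene, was above it in controls 1 and 2 and CTX 1 (59.45, 50.15 and 49.9 RPKM). Bsg, which encodes the MMP inducer basigin, had 258, 248 and 239 in control and 303, 235 and 231 in CTX.

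Pcolce, the enhancer of procollagen C-proteinase, had 131, 136 and 86.5 RPKM in control and 199, 76.0 and 70.5 in CTX. The lysosomal protease gene Ctsl had 346, 302 and 470 in control and 399, 517 and 534 in CTX. Thbs1, which encodes the matrix protein thrombospondin 1, had 84.6, 52.4 and 195 in control and 64.7, 159 and 158 in CTX. The ADAMTS-like gene Adamtsl4 had 3.71, 3.08 and 1.53 in control and 3.15, 1.92 and 1.74 in CTX. Serpine2, Bsg, Pcolce, Ctsl, Thbs1 and Adamtsl4 each had the highest mean of their list over the 6 libraries, and in each the groups overlapped. That rank did not hold in every library: Ctsd was above Ctsl in controls 1 and 2 and CTX 1, and Adamtsl2 was above Adamtsl4 in control 3 and CTX 2 and 3.

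Of the 12 marker lists, only the mesothelium and surface epithelium list had summed levels that did not overlap between the groups. All 8 of its markers were above the filter and none was at 0, with sums of 58.35, 47.0 and 60.9 RPKM in control and 29.1, 43.9 and 41.1 in CTX. The summed list was thus lower in CTX, as Timp3 and Mmp19 were, and its part in their values was not tested. Taken singly, Krt7, Msln, Muc16 and Upk1b had groups that did not overlap, whereas Bnc1, Krt19, Lrrn4 and Upk3b had overlapping groups. Neutrophil markers, the context for Mmp8 and Mmp9, summed to 1.37 to 6.67 in control and 2.47 to 8.37 in CTX, with 1 of 10 above the filter and Elane and Ly6g at 0 in all libraries. Ltf alone gave 3.42, 4.64 and 0.64 RPKM of this sum in control and 5.26, 0.40 and 0.53 in CTX, with the same 3 libraries high as for the luteal markers. Macrophage markers, the context for Mmp12, summed to 186 to 222 in control and 158 to 242 in CTX, with all 10 above the filter.

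The remaining lists overlapped. Stroma sums (10 markers) were 476 to 786 in control and 469 to 697 in CTX, smooth muscle and pericyte sums 566 to 785 and 767 to 903, and endothelial sums 182 to 202 and 152 to 194. Oocyte sums were 137 to 324 and 98.4 to 370, erythroid sums 18.4 to 27.2 and 21.7 to 75.4, and oviduct epithelium sums 5.56 to 11.3 and 4.92 to 17.5.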

How the data were processed

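Each library has its own file from the authors, listing genes by symbol and Ensembl identifier. The deposited values were read as RPKM, since no header names a unit. In genes up to 1000 bases of exon, 97.5 to 98.0% of values worth up to 15 reads lay within 0.2 of a whole read count, and the size of that step gives the depth. Rounding hides whole reads in longer genes, so read numbers are estimates and no count model was used. Bowtie 0.12.2 and mm10 come from the submitters' processing notes. For the counter, annotation release, strand and filters no source used here gives a statement. GENCODE M21 on GRCm38, the assembly of mm10, supplied exon lengths, coordinates and overlaps (45229 identifiers, 98.2%, matched). RefSeq on GRCm38.p6 supplied promoters for 31 of 45 member symbols.

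Limma 3.58.1 (R 4.3.3) compared log2(RPKM + 1) between groups, two-sided, with moderated variances, a mean-variance trend and Benjamini-Hochberg adjustment over all 14535 genes that passed the filter. The code of the fit was checked on simulated data with independent noise, which lacks the order of libraries that many genes share here. All members are named, tested ones with each library's value, and of each partner list the most abundant gene. Members and lists were chosen with earlier results of these data known. The alternatives were: keeping low genes, requiring a mean of 5 RPKM, adding 0.1 or 0.5 before the log, trimmed-mean scaling, quantile normalization, no trend, the replicate number as a block, the mean of 11 luteal markers as a covariate, and leaving out each library.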

Additional observations from a re-analysis of the deposited data

How the results depend on the processing

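Members called stayed at 0 of the tested members under every alternative run, as did the partner genes called. Over all genes, the number called was 0 except for 17 with no filter (4 higher, 13 lower), 2 with the luteal covariate (both lower), and a range of 0 to 13 when each library was left out, 13 being without CTX 1 (6 higher, 7 lower). Members whose groups did not overlap numbered 4, against 1 after quantile normalization, 3 after trimmed-mean scaling (without Mmp11) and 3 at a mean of 5 RPKM. They numbered 5 with no filter (with Mmp1b, higher in CTX) and 4 to 12 over the libraries left out. The share of all genes tested was 8.83%, against 9.45, 9.73, 8.8 and 4.46% in these settings in turn. Over the libraries left out it was 11.5 to 39.8%, highest without CTX 1, where the members numbered 12. Leaving out a library cannot make separate groups overlap. The median log2 difference of the members ranged from -0.093 to 0.12 over the libraries left out, with the highest value without CTX 1. The sign turned in these cases: trimmed-mean scaling gave 0.0058 for Mmp23 and 0.0083 for Timp1, quantile normalization gave -0.019 for Mmp14 and 0.033 for Adamts12, and the luteal covariate gave 0.039 for Timp4, -0.12 for Adamts6, -0.025 for Adamts7, 0.087 for Mmp23 and 0.36 for Timp1. Leaving out each library in turn gave -0.0090 to 0.26 for Adamts4, -0.072 to 0.79 for Adamts6, -0.19 to 0.076 for Mmp28, -0.37 to 0.27 for Adamts19, -0.051 to 0.081 for Mmp14, -0.089 to 0.12 for Adamts7, -0.14 to 0.15 for Timp2, -0.18 to 0.22 for Adamts12, -0.16 to 0.091 for Mmp23 and -0.44 to 0.37 for Timp1. The cause of these turns was not tested. No sign change occurred in 15 of the 26 members, among them Timp3 and Mmp19. Where a group was left with fewer libraries, limma pooled the spread over both groups. No pairing by replicate number was seen in the values: deviations of same-numbered libraries from their group means correlated at 0.40, -0.54 and 0.60, and control 2 correlated best with CTX 1 (0.61). Deviations within a group of 3 are tied to each other, so these correlations cannot decide whether the numbers mark pairs. With the replicate block, limma called 0 genes, 0 members and 0 partners, as without it. Several untested members rest on few reads, and 3 libraries per group limit the precision of all differences. Members that did not pass the filter with a library left out have no value there.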
